A study of Mus musculus with 4 samples.

Results

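The 7 BH3-only genes Bbc3, Pmaip1, Bcl2l11, Bid, Bad, Bik and Bmf and the 3 effector genes Bax, Bak1 and Bok were read in stimulated CD4+ T cells with and without the R111A mutant of Regnase-1. They were taken by gene symbol from a table of 16142 genes, and all 10 were found in it. The cells came from the spleens of WT B6 mice (2 libraries) and of Cd4CreERT2LSL-R111Afl/fl mice (2 libraries), which the methods give as 6 to 12 weeks old and of both sexes. In the mutant mice a CAG promoter at the Rosa26 locus drives R111A, with EGFP after a P2A peptide, once the tamoxifen-activated Cre of Cd4CreERT2 has removed a stop cassette, and the endogenous Zc3h12a gene is retained. Tamoxifen was given intraperitoneally at 75 mg/kg for 5 days, and the labels name both kinds of mice in the sentence on it. The study gives WT mice as dosed in its culture assays, and its methods do not repeat this for these libraries. CD4+ T cells were enriched with untouched-cell beads, sorted by FACS and then held for 12 h with antibodies to CD3 (5 µg/mL) and CD28 (1 µg/mL), which stimulate the T cell receptor and its costimulatory receptor. WT cells carry neither Cre nor the transgene, so the effects of Cre, EGFP and R111A cannot be told apart. For mice with a GFP reporter the methods describe a first gate on GFP+ cells. WT cells have no EGFP, so an effect of such a gate cannot be told apart either. Nothing in the labels says that the 2 libraries of a group came from separate animals, so the p-values measure the spread between these samples, which may be technical.

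BH3-only proteins carry the death signal to mitochondria. Activators such as PUMA (Bbc3), BIM (Bcl2l11) and truncated BID can engage BAX and BAK directly, while sensitizers such as BAD, BIK, BMF and NOXA (Pmaip1) mainly occupy the groove of the guardians BCL-2, BCL-XL, MCL-1 and A1. When the guardians are filled, BAX and BAK form pores in the outer mitochondrial membrane and cytochrome c leaves. In T cells, BIM is known for the death of cells after an immune response, and PUMA and NOXA for the response to p53.

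PolyA RNA was measured as FPKM, a fragment count scaled to gene length and library size, so levels of different genes may be compared per length. Summed over all genes, the FPKM of WT replicate 1 came to 801475 and that of WT replicate 2 to 836143, below the sums of R111A replicate 1 (1053551) and R111A replicate 2 (1012215). From the size of the smallest steps among low values, and assuming fragments of 200 bases, the libraries held about 15000000 fragments in WT replicates 1 and 2 and in R111A replicate 1, and about 13000000 in R111A replicate 2. The log2 ratio between replicates, read over 1938 genes that averaged 50 FPKM or more, had a robust SD of 0.126 for the WT pair and 0.319 for the R111A pair. The R111A libraries thus lay further apart than the WT libraries. Zc3h12a, the gene of Regnase-1, was at 16.97 and 15.72 FPKM in WT cells, against 196.30 and 130.87 FPKM in R111A cells. Both R111A libraries were far above WT, by 3.22 on the log2 scale (standard error 0.19, adjusted p = 9.19e-06 in limma), and reads of the transgene and of the endogenous gene are not distinguished in these values.

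Changes were tested with limma on log2(FPKM + 1) over the 9831 genes that averaged 1 FPKM or more, with p-values adjusted over all of them, and a gene was called where the adjusted p was under 0.05 and the change was at least 2-fold on that scale. This scale understates the change of low genes. Of the 10 genes, 8 were tested, and Bmf and Bok were below the filter. Bbc3 and Pmaip1 were called higher and Bid was called lower in R111A CD4+ T cells. These are 3 of 8, beside 1658 of all 9831 genes tested (16.9%), with 2 called higher beside a background of 8.52% and 1 called lower beside 8.34%. By the adjusted p alone, Bax joined the higher genes (3, beside 21.2% of all genes) and Bik the lower ones (2, beside 32.1%). Bcl2l11, Bad and Bak1 did not pass. Bik passed the filter through its WT level alone, since its mean in R111A was below 1 FPKM, so no count over the tested genes is taken as support for a pattern. For 2 libraries a group the smallest two-sided p of an exact permutation test is 0.333, so the p-values rest on the model across genes.

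**Figure D1:**
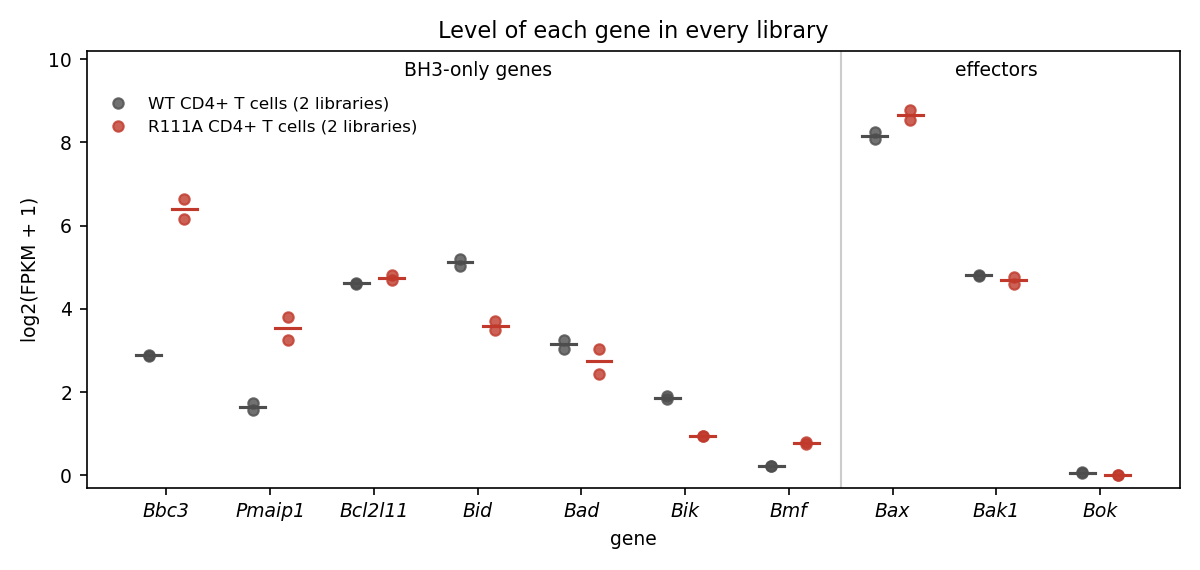
Level of each of the 10 genes as log2(FPKM + 1) in the 2 WT libraries (grey) and the 2 R111A libraries (red), with a short line at each group's mean. Bbc3 and Pmaip1 sit higher and Bid and Bik lower in both R111A libraries, while Bax is the most abundant of the 10 in every library.

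Bbc3 encodes PUMA, which binds every guardian and is a classical p53 target. Bbc3 (NCBI gene 170770) lies at chr7:16308398-16318334 of GRCm38.p6 on the plus strand. It was at 6.35 and 6.43 FPKM in WT cells, against 99.13 and 70.82 FPKM in R111A cells. Both R111A libraries were far above both WT libraries, and the WT libraries were nearly equal. The ratio of the group means was 13.3, and the log2 fold change was 3.52 (standard error 0.17, 95% interval 3.12 to 3.92, adjusted p = 4.53e-06 in limma). Of the 9831 genes tested, 13 had a larger log2 rise.

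Since Bbc3 moved most among these genes, its promoter is shown beside those of Bcl2l11 and Bax, which also held a motif match. RefSeq windows of GRCm38.p6, from 250 bases before to 50 after a start, were held for 8 of the 10 genes, 14 windows in all, and windows of Pmaip1 and Bik were not analysed here. Searched on both strands were the FOXO heptamer GTAAACA, the E-box CACGTG and the p53 decamer, given by name, which do not overlap in the windows shown. They occurred in 3.65%, 7.15% and 8.36% of all 32851 windows. Bbc3 has 3 windows, and the one at chr7:16310011-16310310 (plus strand) held the FOXO heptamer as its reverse complement. The Bcl2l11 window at chr2:128125788-128126087 (plus strand) held the same heptamer, and the Bax window at chr7:45466849-45467148 (minus strand) held a p53 decamer, which starts at base 50, and 2 E-boxes, which start at bases 242 and 286. Capitals mark these matches, which describe the letters and are not evidence of binding.
Bbc3: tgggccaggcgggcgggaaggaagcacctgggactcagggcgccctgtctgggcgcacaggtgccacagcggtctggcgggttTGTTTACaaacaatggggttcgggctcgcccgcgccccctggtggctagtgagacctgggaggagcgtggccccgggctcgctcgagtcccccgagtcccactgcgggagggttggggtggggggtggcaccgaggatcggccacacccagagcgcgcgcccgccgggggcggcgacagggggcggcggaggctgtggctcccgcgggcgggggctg
Bcl2l11: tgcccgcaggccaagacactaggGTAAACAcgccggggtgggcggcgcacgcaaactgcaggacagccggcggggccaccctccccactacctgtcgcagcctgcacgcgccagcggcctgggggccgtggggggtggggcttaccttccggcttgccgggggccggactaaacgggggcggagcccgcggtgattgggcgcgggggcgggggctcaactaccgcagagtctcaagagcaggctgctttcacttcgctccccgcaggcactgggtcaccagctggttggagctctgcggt
Bax: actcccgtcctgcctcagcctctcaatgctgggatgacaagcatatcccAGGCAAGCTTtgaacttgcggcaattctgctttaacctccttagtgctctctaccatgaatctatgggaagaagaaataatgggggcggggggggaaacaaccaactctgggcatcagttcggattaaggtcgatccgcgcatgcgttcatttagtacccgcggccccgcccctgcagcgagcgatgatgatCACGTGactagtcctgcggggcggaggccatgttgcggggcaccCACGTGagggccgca

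Pmaip1 encodes NOXA, which binds MCL-1 and A1. Pmaip1 (NCBI gene 58801) was at 1.97 and 2.32 FPKM in WT cells, against 8.51 and 13.02 FPKM in R111A cells. Both R111A libraries were above both WT libraries, and here R111A replicate 2 was the higher of the pair, whereas for Bbc3 it was replicate 1. The ratio of means was 5.02, with a log2 change of 1.88 (standard error 0.20, adjusted p = 0.000113 in limma). Even so, Pmaip1 in R111A stayed below Bbc3 in the same cells, at group means of 10.8 and 85.0 FPKM.

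Bcl2l11 encodes BIM. Bcl2l11 (NCBI gene 12125, at chr2:128126038-128162547) was at 23.80 and 23.33 FPKM in WT cells, against 26.93 and 24.75 FPKM in R111A cells. The groups do not overlap, but their gap is smaller than the distance between the R111A libraries. The log2 fold change was 0.13 (95% interval -0.17 to 0.43, adjusted p = 0.442 in limma), so a change of 2-fold either way lies outside the interval. Its sign turned to -0.20 on the TPM scale, in which each library's values add up to the same sum (adjusted p = 0.259), where the median of all genes also moved down.

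Bid links the death receptors to mitochondria, since caspase-8 cuts the protein to its active form. Bid (NCBI gene 12122) lies at chr6:120893119-120917062 on the minus strand. It was at 31.82 and 35.84 FPKM in WT cells, against 12.15 and 10.17 FPKM in R111A cells. Both R111A libraries were well below both WT libraries. The WT mean was 3.03 times the R111A mean, with a log2 change of -1.52 (standard error 0.15, 95% interval -1.86 to -1.18, adjusted p = 7.73e-05 in limma). Casp8, which encodes the protease, was at 32.71 and 31.61 FPKM in WT cells, against 34.85 and 45.89 FPKM in R111A cells. It did not pass the test (log2 fold change 0.31, adjusted p = 0.133 in limma). Without R111A replicate 1, where the spread comes from the WT pair alone, the log2 fold change was 0.50. Casp8 is named here for its role, after its values were seen.

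Among the sensitizers, Bad, which survival kinases hold inactive by phosphorylation, was at 7.26 and 8.59 FPKM in WT cells, against 7.26 and 4.37 FPKM in R111A cells. The groups touch, since WT replicate 1 and R111A replicate 1 had the same value. Its log2 fold change of -0.42 (95% interval -0.90 to 0.06) did not pass (adjusted p = 0.125 in limma). Bad passed the adjusted p with the values rescaled to TPM (-0.72, adjusted p = 0.00631 in limma). Without R111A replicate 1 its log2 fold change was -0.73, and without R111A replicate 2 it was -0.11. Over the alternatives that kept all 4 libraries the adjusted p of Bad ran from 0.00631 to 0.264. Bik, which acts largely at the endoplasmic reticulum, was at 2.72 and 2.57 FPKM in WT cells, against 0.91 and 0.93 FPKM in R111A cells. Both R111A libraries were below both WT libraries and close to each other. On the log2 scale Bik fell by 0.92 (standard error 0.13, adjusted p = 0.000655 in limma), short of 2-fold on a scale with 1 FPKM added, while the WT mean was 2.88 times the R111A mean. It was called lower in limma with a pseudocount of 0.1 FPKM (-1.43, adjusted p = 0.000946), after rescaling to TPM (-1.16, adjusted p = 4.06e-05) and after quantile normalization (-1.12, adjusted p = 0.000455). Over the alternatives that kept all 4 libraries and added no block for the replicate number, the adjusted p of Bik ran from 4.06e-05 to 0.00496. An estimated 6 to 15 fragments stood behind each R111A value of Bik, depending on the transcript, so its level there is imprecise. Bmf, which dynein light chains tether to the cytoskeleton, was at 0.17 and 0.16 FPKM in WT cells, against 0.69 and 0.74 FPKM in R111A cells. The R111A libraries were above the WT libraries, at levels below 1 FPKM in all 4 libraries. With no filter on low values its log2 fold change was 0.56 (standard error 0.05, adjusted p = 0.00356 in limma), from an estimated 7 to 12 fragments in a WT library.

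Bax encodes the effector that shuttles between cytosol and mitochondria. Bax (NCBI gene 12028) lies at chr7:45461695-45466903 on the minus strand. It was at 270.23 and 301.10 FPKM in WT cells, against 438.21 and 371.72 FPKM in R111A cells. The groups do not overlap, and the R111A libraries differ from each other by more than the WT libraries do. The ratio of means was 1.42, with a log2 change of 0.50 (standard error 0.14, adjusted p = 0.0146 in limma), short of 2-fold. The adjusted p was 0.286 on the TPM scale (log2 fold change 0.17). It was 0.0038 to 0.0416 under the other alternatives that kept all 4 libraries. Without WT replicate 1 the change of Bax was 0.42 and did not pass. Bak1, which encodes the effector that resides on mitochondria, was at 26.80 and 26.98 FPKM in WT cells, against 26.31 and 23.16 FPKM in R111A cells. R111A replicate 1 was close to the WT libraries and replicate 2 lay lower. The log2 fold change was -0.12 (95% interval -0.43 to 0.19, adjusted p = 0.484 in limma), and after rescaling to TPM it was -0.44 (adjusted p = 0.0189), where the median of all genes was -0.42. Bok, a related protein that can form pores without BAX and BAK, was at 0.04 and 0.05 FPKM in WT and was listed at 0 in both R111A libraries. The WT values correspond to an estimated 1 fragment or fewer, so a difference in Bok was not detectable at this depth.

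**Figure D2:**
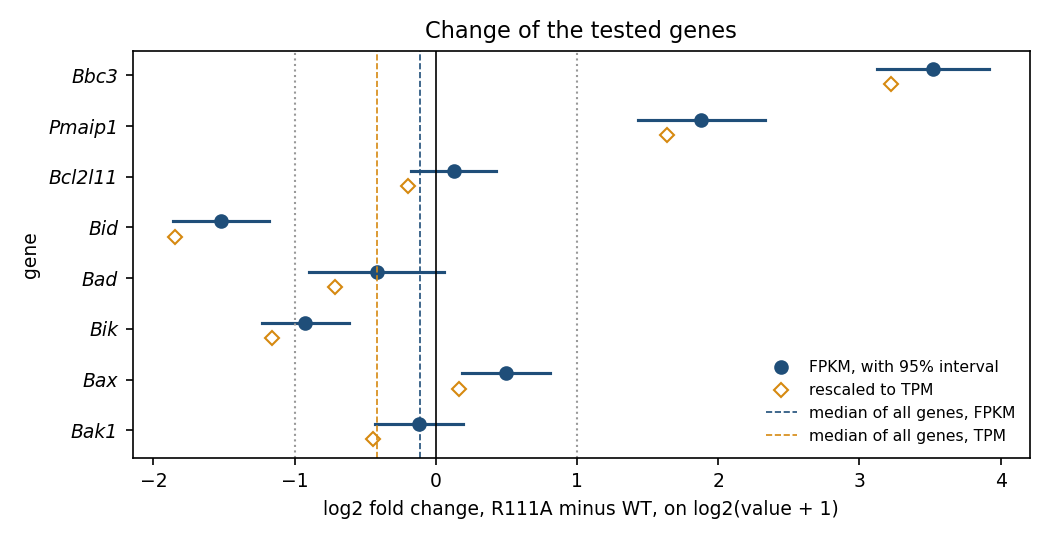
Log2 fold change (R111A minus WT, on log2(value + 1)) of the 8 tested genes from FPKM with its 95% interval (circles) and after rescaling to TPM (diamonds), with dotted lines at 2-fold and dashed lines at the median of all genes tested on each scale. Every diamond is left of its circle, by about as much as the median moved, and Bbc3, Pmaip1 and Bid stay past 2-fold on both scales.

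The libraries' FPKM sums differ, and dividing each by its sum moved the median log2 fold change of all genes from -0.12 to -0.42, a shift of -0.30. Relative to the median, Bbc3 was at 3.64 on both scales, Pmaip1 at 1.99 and 2.05 with TPM, Bid at -1.41 and -1.43, Bik at -0.81 and -0.74, Bax at 0.61 and 0.58, Bcl2l11 at 0.24 and 0.22, Bad at -0.30 on both, and Bak1 at the median from FPKM and at -0.02 with TPM. Since the rescaling divides every gene of a library by the same number, these values are tied to each other, save that low genes move less with 1 added before the log. The share of higher against lower calls over all genes did depend on it, with 838 higher and 820 lower genes from FPKM and 580 higher and 1756 lower genes from TPM.

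The order of the levels differed between the groups. In WT CD4+ T cells it ran, by mean FPKM, from Bax (286) through Bid (33.8), Bak1 (26.9), Bcl2l11 (23.6), Bad (7.93), Bbc3 (6.39), Bik (2.65) and Pmaip1 (2.15) to Bmf (0.165) and Bok (0.045), and no neighbours overlapped between the 2 libraries. In R111A CD4+ T cells it ran from Bax (405) through Bbc3 (85.0), Bcl2l11 (25.8), Bak1 (24.7), Bid (11.2), Pmaip1 (10.8), Bad (5.82), Bik (0.92) and Bmf (0.715) to Bok (0). There the values of Bcl2l11 and Bak1 overlapped between libraries, as did those of Bid and Pmaip1, although within each R111A library Bcl2l11 was above Bak1. Bbc3 went from the sixth place to the second, and Bid from the second to the fifth.

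The summed FPKM of the 7 BH3-only genes was 74.1 and 79.2 in the WT libraries and 155.6 and 124.8 in the R111A libraries. Without Bbc3 it was 67.7 and 72.8 in WT and 56.5 and 54.0 in R111A, so the remaining 6 genes together were lower in both R111A libraries. Bbc3 made up 8.57% and 8.11% of the sum in WT and 63.7% and 56.7% in R111A. Bid made up 42.9% and 45.2% in WT and 7.81% and 8.15% in R111A, and Bcl2l11 32.1% and 29.4% against 17.3% and 19.8%. In WT the sum was thus mostly Bid and Bcl2l11, and in R111A mostly Bbc3. Shares within a library do not depend on the scaling between libraries.

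**Figure D3:**
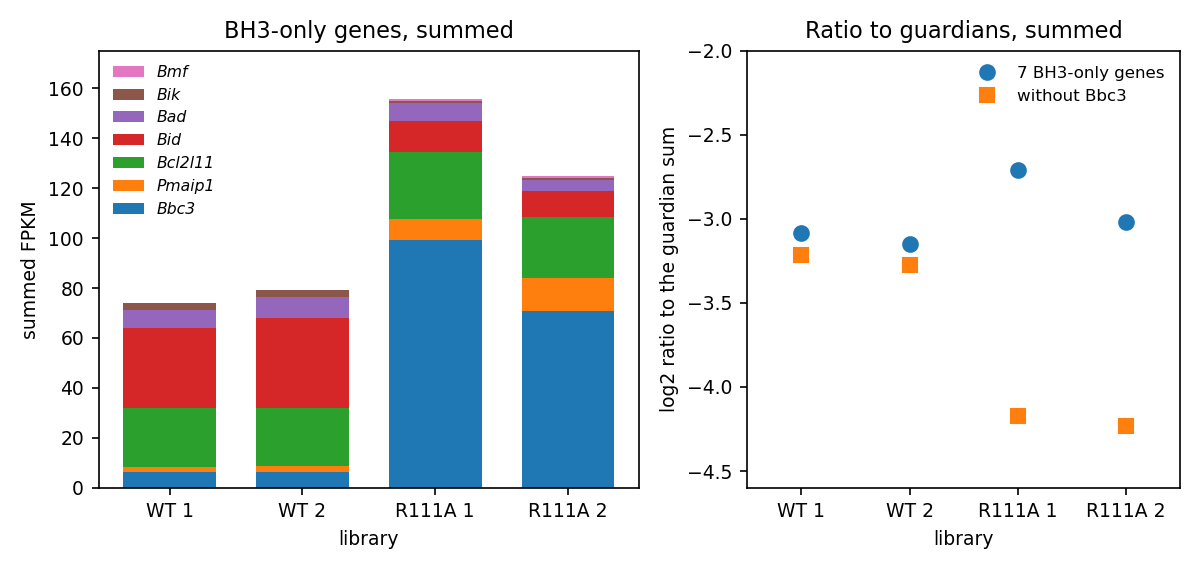
Left, summed FPKM of the 7 BH3-only genes in each library, stacked by gene. Right, log2 ratio of the BH3-only sum to the guardian sum in each library, with all 7 genes (circles) and without Bbc3 (squares). With Bbc3 the R111A libraries lie above the WT libraries, and without it they lie below.

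The guardians are the proteins that BH3-only proteins occupy. Of 7 guardian genes, 6 were tested, 1 was called higher and 1 lower, beside 8.52% and 8.34% of all genes tested, and the other 4 passed the adjusted p alone. By the adjusted p, 4 were thus higher and 2 lower, beside 21.2% and 32.1%, with Bcl2l2, 1 of the lower ones, past the filter through its WT level alone and called lower with a pseudocount of 0.1 FPKM (-1.38), with TPM (-1.06) and after quantile normalization (-1.09). Their median log2 fold change was 0.56, beside -0.12 for all genes tested, and 0.24 with TPM, beside -0.42. Of the 4, Bcl2 and Mcl1 did not pass after rescaling to TPM (adjusted p = 0.0634 and 0.393), nor with either WT library left out. Bcl2l1, which encodes BCL-XL, was at 88.55 and 95.78 FPKM in WT cells, against 24.83 and 18.94 FPKM in R111A cells, and on the log2 scale it fell by 2.04 (standard error 0.16, adjusted p = 2.66e-05 in limma). Bcl2a1d, a gene of A1, was at 100.09 and 111.85 FPKM in WT cells, against 262.49 and 276.96 FPKM in R111A cells (log2 fold change 1.34, adjusted p = 6.8e-05 in limma). The most abundant guardian gene was Bcl2a1b, at 320.91 and 371.27 FPKM in WT cells, against 562.95 and 546.09 FPKM in R111A cells (log2 fold change 0.68, adjusted p = 0.00246 in limma). Bcl2a1a, Bcl2a1b and Bcl2a1d are near-identical copies between which reads may be split, so their separate values are uncertain.

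The log2 ratio of the BH3-only sum to the guardian sum was -3.09 and -3.15 in WT and -2.71 and -3.02 in R111A, a difference of 0.25 between the means. Both R111A libraries were above both WT libraries, by little in replicate 2. The difference was 0.10 without R111A replicate 1 and 0.41 without R111A replicate 2, so its size rests on single libraries. It turned to -0.87 without the most abundant gene of each sum over all libraries (Bbc3, which in WT lay below Bid, Bcl2l11 and Bad, and Bcl2a1b). Without Bbc3 alone, an alternative chosen after seeing the data, it was -0.96. Without the 3 A1 copies, also chosen after seeing the data, it was 1.03. The direction of the ratio therefore turned with Bbc3, and its size changed with the A1 genes. For the effectors, the log2 ratio to the guardian sum was -1.08 and -1.10 in WT and -1.13 and -1.36 in R111A.

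Other genes around these were read from lists chosen for their roles. Of 8 other genes whose proteins hold a BH3 motif, 5 were tested and 0 were called by limma (16.9% of all genes were). Of these, 3 were at an unadjusted p under 0.05 and 2 past the adjusted p (Bnip3 and Bcl2l12, both lower, beside 32.1% of all genes). The median log2 fold change was -0.11, beside -0.12 for all genes, and -0.42 with TPM, beside -0.42. It was 0.05 without WT replicate 2 (6 genes tested) and 0.02 with no filter (7 genes tested), so it has no firm sign. Bnip3 was called lower with a pseudocount of 0.1 FPKM (-1.10), with TPM (-1.20) and without R111A replicate 2 (-1.04), while Bcl2l12 did not pass without WT replicate 2 (adjusted p = 0.221) or with no filter (0.0507). The most abundant was Becn1, a gene of autophagy, at 87.32 and 83.00 FPKM in WT cells, against 94.91 and 108.50 FPKM in R111A cells (adjusted p = 0.138 in limma). Bcl2l15, below the filter, was at 0.24 and 0.03 FPKM in WT cells, against 1.45 and 1.45 FPKM in R111A cells. With no filter 1 gene of the list was called higher, beside 6.18% of all genes, and 0 were called lower. Hrk was not analysed here.

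Of 23 partners and modifiers, all were tested, 2 were called higher and 8 lower, beside 8.52% and 8.34% of all genes, and the median log2 fold change was -0.75, beside -0.12. By the adjusted p alone 3 were higher and 16 lower, beside 21.2% and 32.1%. The count of lower genes was 13 with TPM, where 17.8% of all genes were called lower, and 4 after quantile normalization, where 7.35% were. Pim2, a kinase that phosphorylates BAD, was at 136.56 and 137.68 FPKM in WT cells, against 14.40 and 11.92 FPKM in R111A cells, and on the log2 scale it fell by 3.29 (adjusted p = 3.04e-06 in limma). Of its relatives, named after their values were seen, Pim1 was called higher (1.03, adjusted p = 0.0015 in limma), though short of 2-fold with TPM (0.69) or without R111A replicate 1 (0.76), and Pim3 passed the adjusted p alone (0.47), though not with TPM (0.14) or with either WT library left out. Gzmb, whose protease can cut BID, was at 7.07 and 6.67 FPKM in WT cells, against 0.10 and 0.77 FPKM in R111A cells. Dynll2, whose dynein light chain binds BMF, was at 50.74 and 57.17 FPKM in WT cells, against 19.50 and 17.03 FPKM in R111A cells. Gzmb and Dynll2 were low in both R111A libraries, with log2 fold changes of -2.50 and -1.51, and Gzmb passed the filter through its WT level alone. Vdac1, a channel of the outer mitochondrial membrane, was at 116.41 and 110.23 FPKM in WT cells, against 37.59 and 37.68 FPKM in R111A cells (log2 fold change -1.56, adjusted p = 3e-05 in limma). Ppp3ca, a catalytic subunit of calcineurin, which dephosphorylates BAD, was at 1.11 and 0.94 FPKM in WT cells, against 4.44 and 3.79 FPKM in R111A cells (log2 fold change 1.34, adjusted p = 0.000136 in limma). With a pseudocount of 5 FPKM it was short of 2-fold (0.60). The most abundant of the list over all libraries was Ywhae, a 14-3-3 gene, at 259.70 and 275.01 FPKM in WT cells, against 163.82 and 152.49 FPKM in R111A cells (log2 fold change -0.75, adjusted p = 0.00118 in limma). By the R111A mean it lay below Pim1 and another 14-3-3 gene, though in R111A replicate 2 it was above Pim1 (145.74 FPKM).

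Of 11 transcription factors that act on these genes, 10 were tested, 2 were called higher and 2 lower, beside 8.52% and 8.34% of all genes. Their median log2 fold change was 0.30, beside -0.12 for all genes. It was 0.18 without R111A replicate 1, beside -0.11, and -0.01 with TPM, beside -0.42. By the adjusted p alone 5 factors were higher and 2 lower, beside 21.2% and 32.1% of all genes. Ddit3, which encodes the stress factor CHOP, was at 16.41 and 14.65 FPKM in WT cells, against 62.15 and 66.56 FPKM in R111A cells (log2 fold change 1.98, adjusted p = 1.48e-05 in limma). Jun was at 6.05 and 6.19 FPKM in WT cells, against 17.70 and 12.39 FPKM in R111A cells (log2 fold change 1.15, adjusted p = 0.000901 in limma). Both were high in both R111A libraries. E2f1, a factor of cell cycle entry, was at 8.08 and 7.97 FPKM in WT cells, against 1.23 and 1.09 FPKM in R111A cells (log2 fold change -2.06, adjusted p = 1.43e-05 in limma). Myc was at 228.22 and 203.56 FPKM in WT cells, against 127.80 and 87.58 FPKM in R111A cells (log2 fold change -1.02, adjusted p = 0.00186 in limma). Jun was not past 2-fold after rescaling to TPM (0.86) or without R111A replicate 1 (0.91), and Myc was not past it without WT replicate 1 (-0.94) or without R111A replicate 2 (-0.75), among other settings. Trp53, the gene of p53, was at 107.90 and 94.85 FPKM in WT cells, against 122.55 and 79.47 FPKM in R111A cells, so the groups overlapped (adjusted p = 0.897 in limma). Its log2 fold change was -0.34 without R111A replicate 1 and 0.27 without R111A replicate 2, so its sign rests on single libraries. Trp53 is named here for its role, after its values were seen. Foxo1, Foxo3 and Foxo4, named for the FOXO motif after their values were seen, had log2 fold changes of 0.84, 0.58 and 0.64, past the adjusted p and short of 2-fold. With TPM, Foxo1 still passed (adjusted p = 0.0208), and Foxo3 and Foxo4 did not (0.27, adjusted p = 0.18; 0.38, adjusted p = 0.0698), nor did these 2 pass without WT replicate 1 (adjusted p = 0.0535 and 0.131). Foxo3 also did not pass without WT replicate 2 (0.196) or with no filter (0.0624), and Foxo1 was past 2-fold without R111A replicate 2 (1.10). The most abundant was Atf4, at 265.43 and 267.57 FPKM in WT cells, against 265.77 and 258.69 FPKM in R111A cells (adjusted p = 0.884 in limma), and it passed the adjusted p with TPM (-0.36, adjusted p = 0.0255).

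Of 11 genes that act after the outer membrane has opened, all were tested, 1 was called higher and 1 lower, beside 8.52% and 8.34% of all genes. Their median log2 fold change was -0.47, beside -0.12 for all genes. It was -0.31 without R111A replicate 1 or after quantile normalization and -0.61 without R111A replicate 2. With TPM it was -0.80, beside -0.42. With TPM the counts were 0 higher and 4 lower, Endog and Cycs among them, beside 5.86% and 17.8%. Apaf1, the scaffold of the apoptosome, was at 3.78 and 3.59 FPKM in WT cells, against 9.31 and 10.00 FPKM in R111A cells (log2 fold change 1.18, adjusted p = 0.000203 in limma), and after rescaling to TPM it was short of 2-fold (0.91). Endog, a mitochondrial nuclease, was at 23.45 and 26.81 FPKM in WT cells, against 9.49 and 5.63 FPKM in R111A cells (log2 fold change -1.64, adjusted p = 0.000355 in limma). The most abundant was Cycs, the gene of cytochrome c, at 109.43 and 112.96 FPKM in WT cells, against 63.42 and 71.69 FPKM in R111A cells (log2 fold change -0.71, adjusted p = 0.00199 in limma). By the adjusted p alone 1 gene of the list was higher and 6 were lower, beside 21.2% and 32.1% of all genes.

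**Figure D4:**
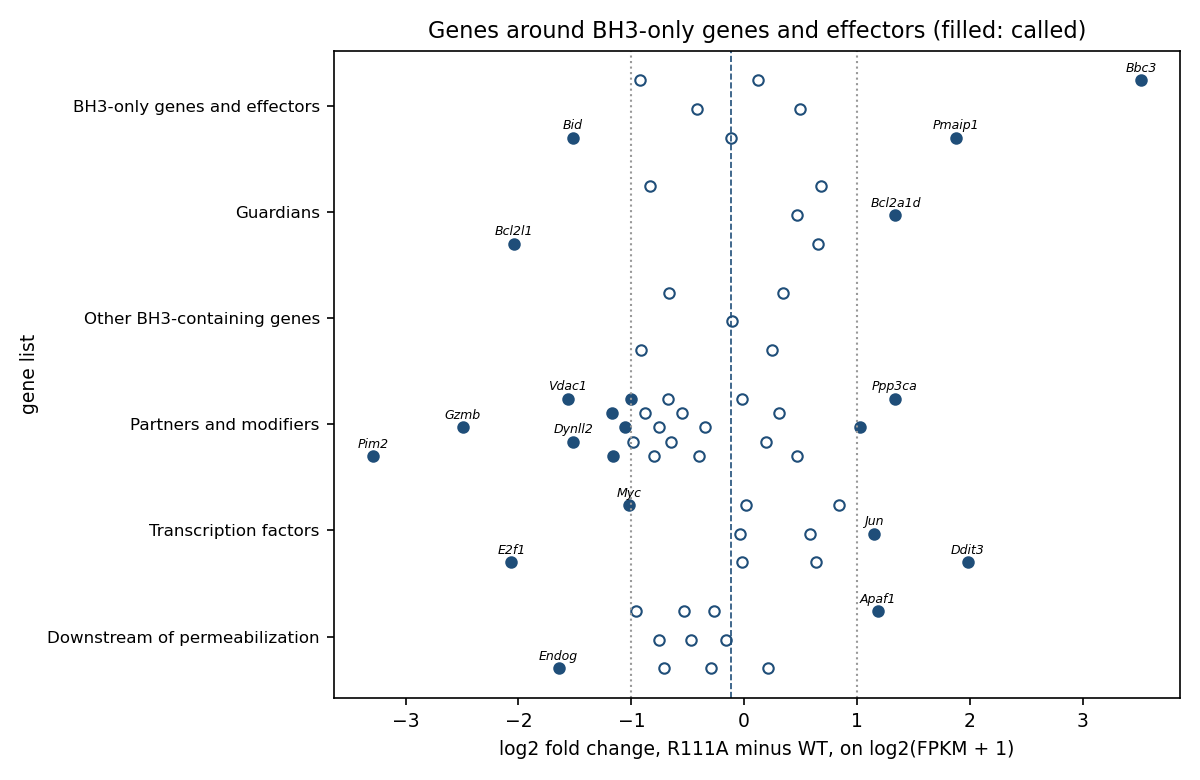
Log2 fold change (R111A minus WT, on log2(FPKM + 1)) of every tested gene of each list, 1 point a gene, with vertical offsets added for legibility. Filled points were called, and the 5 largest called changes of each list are named. Dotted lines mark 2-fold and the dashed line marks the median of all genes tested (-0.12).

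The genes whose profile over the 4 libraries was most like that of each called gene were taken by the root mean square (RMS) difference of centred log2(FPKM + 1) values, among genes that averaged 5 FPKM or more. With 4 libraries in 2 groups, such likeness mostly restates the change between the groups. For Bbc3 they were Pik3ip1, Tubb3, Fam83g, Epha2 and Phlda3, with RMS differences of 0.07 to 0.12. Pik3ip1, the closest, was at 2.42 and 2.69 FPKM in WT cells, against 45.62 and 36.28 FPKM in R111A cells. For Pmaip1 they were Emp1, Homer1, Ccng1, Polk and Smim3, with RMS differences of 0.07 to 0.11. Pik3ip1, Tubb3, Fam83g, Epha2, Emp1, Polk and Smim3 averaged below 5 FPKM in WT and entered this search through their R111A level alone. For Bid they were Dynll2, Aldh9a1, Agpat2, Ppm1m and Sdf2l1, with RMS differences of 0.02 to 0.05.

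Markers of cell types were read beside these results. In bulk samples, fewer cells of a type and less RNA per cell cannot be told apart. Of 8 markers of CD4+ T cells, all were tested, 1 was called lower and none higher by limma, beside 8.34% and 8.52% of all genes, and their summed level was 2076 and 2060 FPKM in WT and 1728 and 1583 FPKM in R111A, with Cd3g the most abundant by the mean of each group. The marker called lower was Cd4 itself, at 157.54 and 131.28 FPKM in WT cells, against 70.69 and 51.35 FPKM in R111A cells. Cd3g, Cd5 and Lck were lower by the adjusted p alone (log2 fold changes -0.61, -0.40 and -0.36, adjusted p = 0.0032, 0.0491 and 0.0451 in limma). Cd3e, Cd28 and Cd247 did not pass. Cd3d went the other way, past the adjusted p alone (log2 fold change 0.37, adjusted p = 0.0294 in limma), though not with TPM (0.04, adjusted p = 0.811) or with either WT library left out. Most of these markers are shared by all T cells, and Cd4 was above Cd8a and Cd8b1 in every library. Foxp3, the more abundant of the 2 markers of regulatory T cells over all libraries, was at 11.31 and 8.78 FPKM in WT cells, against 2.86 and 1.86 FPKM in R111A cells (log2 fold change -1.72, adjusted p = 0.000149 in limma). The other, Ikzf2, was above Foxp3 by the R111A mean, through R111A replicate 2 alone (4.36 against 1.86 FPKM). Of these 2 markers 1 was called, lower, beside 8.34% of all genes, with sums of 15.8 and 13.1 FPKM in WT and 5.21 and 6.22 FPKM in R111A. Ikzf2 did not pass (log2 fold change -0.35, adjusted p = 0.192 in limma), and its groups overlapped.

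Several markers of other cells were higher in R111A at low levels. The 4 erythroid markers summed to 0.66 and 0.44 FPKM in WT and to 12.5 and 11.8 FPKM in R111A, of which Hba-a1 made 12.26 and 11.74 FPKM and was called, while Hbb-bs was at 0 in every library. The 7 myeloid markers summed to 0.68 and 0.67 FPKM in WT and to 6.76 and 4.26 FPKM in R111A, with Lyz2 the most abundant over all libraries and called higher, and S100a9 at 0 in every library. Of B cell markers, Cd79a (WT, 0.32 and 0.24 FPKM; R111A, 2.99 and 2.37 FPKM) was called higher (log2 fold change 1.52), and Ms4a1 was at or below 0.23 FPKM in every library. The 4 NK cell markers summed to 1.03 and 0.82 FPKM in WT and to 7.86 and 5.68 FPKM in R111A, most of it Eomes, which T cells also express and which was called higher. The 2 CD8+ T cell markers summed to 7.31 and 6.76 FPKM in WT and to 3.88 and 4.46 FPKM in R111A, nearly all of it Cd8b1, the 1 of them tested, which passed the adjusted p short of 2-fold (log2 fold change -0.62) but did not pass without WT replicate 1 (adjusted p = 0.103), with Cd8a at or below 0.20 FPKM. Hba-a1, Lyz2, Cd79a and Eomes averaged below 1 FPKM in WT and passed the filter through their R111A level alone. These levels moved with the groups as Bbc3, Pmaip1 and Bid did, and their part in the result was not tested.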

How the data were processed

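PolyA RNA of 2 WT and 2 R111A libraries of stimulated CD4+ T cells was sequenced. The submitters' processing notes name Bowtie2 (version 2.4.4), RSEM (version 1.2.28) and the build mm10, and the authors deposited 1 table of FPKM values for 16142 genes, of which 1694 were at 0 in all 4 libraries. RSEM shares reads that fit several genes between them, which affects near-identical copies, and FPKM sums differ between libraries, which affects every fold change in the same direction. No counts were used here.

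Groups were taken from the sample labels. The test was limma (version 3.58.1 in R 4.3.3; lmFit and eBayes with a trend) on log2(FPKM + 1) for genes that averaged 1 FPKM or more, with Benjamini-Hochberg adjustment over all 9831 genes tested. It was tested on simulated data with the same spread in both groups and few genes changed. Here the R111A libraries lay further apart than the WT libraries and many genes changed, so that simulation does not cover these data. The thresholds, an adjusted p under 0.05 and 2-fold, are those of the study. Genes were named by a rule: the 10 genes, and from each list the genes past both thresholds (at most 5, by fold) and the most abundant one over all libraries, and the 5 nearest profiles of each called gene. Some others were named for their role after their values were seen. The members and lists were chosen with earlier results of these data known. 1 listed marker, and the sum that includes it, is not reported here. The log2 ratio of the BH3-only to the guardian sum is a value for each library with no test.

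Depth was estimated from genes with a single GENCODE protein-coding transcript of 500 to 1500 bases, as the most frequent value of FPKM times effective length. Coordinates and promoters are from RefSeq for GRCm38.p6, the assembly of mm10. Other steps used Python 3.11.15, numpy 2.4.6 and pandas 2.3.3.

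The alternatives changed the pseudocount (0.1 or 5 FPKM), the filter (none, or 5 FPKM), the scaling (TPM, which divides each library's FPKM by their sum, quantiles, or median-of-ratios factors), the variance model (eBayes with no trend, or robust) and the fold threshold (none), added the replicate number as a block, or left out each library in turn.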

Additional observations from a re-analysis of the deposited data

How the results depend on the processing

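Bbc3 and Pmaip1 were called higher and Bid lower under each of 14 alternatives in limma, with log2 fold changes of 2.96 to 3.76, 1.13 to 2.25 and -1.84 to -1.27. The highest adjusted p was 0.00238 for Bbc3, 0.00748 for Pmaip1 and 0.0041 for Bid, each with no filter. Pmaip1 passed the filter at 5 FPKM through its R111A level alone (group means 2.15 FPKM in WT and 10.8 FPKM in R111A), so that setting adds no support for it. The count of the 10 genes called lower moved from 1 to 2 with a pseudocount of 0.1 FPKM, with TPM, with quantile normalization and with no fold threshold, each time through Bik, which a filter at 5 FPKM removes. Over all genes, 838 were called higher and 820 lower. These counts were 386 and 402 with a pseudocount of 5 FPKM, which shrinks low genes, 2088 and 3152 with no fold threshold, 521 higher with a filter at 5 FPKM, where fewer genes are tested, and 1756 lower with TPM, where the median of all genes moved by -0.30. Without each library in turn, where the lone library of a group is assumed to vary like the others, the 10 genes gave 2 higher and 1 lower each time, and all genes gave 785 to 884 higher and 812 to 887 lower.

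The difference in the log2 ratio of the BH3-only to the guardian sum, 0.25, was 0.10 to 0.41 without a library. It was -0.87 without the most abundant gene of each sum over all libraries (Bbc3 only through R111A), -0.96 without Bbc3 and 1.03 without the A1 copies, the last 2 added after seeing the data, and these follow from the genes left out. Bcl2l11 turned to -0.20 with TPM. Of 54 other named genes, 8 of 745 values changed sign, Becn1 (-0.081) and Casp8 (-0.020) with TPM, Atf4 at 0.069 and Trp53 at 0.056 with median-of-ratios scaling, Atf4 at 0.20 and Trp53 at 0.21 with quantile normalization, and Trp53 also without WT replicate 1 (0.057) or R111A replicate 2 (0.27), and none of these 4 genes was called. In 17 of these values, over 8 genes, a call was lost, and in 9 a call was gained, Bnip3 and Bcl2l2 in 3 settings each, Ywhae and Cycs with TPM (-1.09 and -1.05), and Foxo1 without R111A replicate 2 (1.10). Without R111A replicate 1, Trp53 was at -0.34, Casp8 at 0.50 and Becn1 at 0.35, in a fit whose spread came from the WT pair alone. Becn1 passed the adjusted p in limma after quantile normalization (0.0169), and Atf4 passed it with TPM (0.0255). The adjusted p was lost by Bcl2, Mcl1, Pim3, Foxo3, Foxo4 and Cd3d with TPM, by these 6 and Cd8b1 without WT replicate 1, by Bcl2, Mcl1, Pim3, Foxo3, Cd3d and Bcl2l12 without WT replicate 2, and by Pim3, Foxo3 and Bcl2l12 with no filter. The count of called genes in each list, added after seeing the data, ran over the alternatives at 1 higher and from 1 to 2 lower for guardians, 0 to 1 and 0 to 1 for other BH3 genes, 0 to 2 and 4 to 13 for partners and modifiers, 1 to 3 and 1 to 2 for transcription factors, and 0 to 1 and 1 to 4 for genes that act after the membrane opens. These ranges cover the alternatives that keep the fold threshold. By the adjusted p alone the counts of higher and lower genes were 4 and 2 for guardians and 0 and 2 for other BH3 genes. They were 3 and 16 for partners and modifiers, 5 and 2 for transcription factors, and 1 and 6 for genes that act after the membrane opens. Of all genes, 21.2% were higher and 32.1% lower by the adjusted p alone. For the TPM values the cause of a change beyond the median's shift was not tested.

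The samples of both groups are numbered 1 and 2, and the labels do not say whether the numbers mean more. Over the 9831 genes the deviations of same-numbered samples correlated at 0.11 across 2 pairs, which cannot settle it. The numbers were not treated as pairs in the main test. A replicate block gave 841 genes higher and 821 lower, with 2 and 1 of the 10 genes, and with it Bad passed the adjusted p (0.0346). Depth limits Bik, Bmf and Bok.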

Other observations

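Some ratios between single genes were computed after their values were seen and are given as values with no test. The level of Bbc3 was 0.0717 and 0.0671 times that of Bcl2l1, which encodes the guardian BCL-XL, in WT replicates 1 and 2, and 3.99 and 3.74 times in R111A replicates 1 and 2. Bcl2l1 was thus the more abundant of the pair in both WT libraries and Bbc3 in both R111A libraries. The level of Bbc3 relative to Bid was 0.200 and 0.179 in WT and 8.16 and 6.96 in R111A. Bax was at 10.1 and 11.2 times the level of Bak1 in WT and at 16.7 and 16.1 times in R111A.

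Of the 14 promoter windows of these genes, 9 held none of the 3 motifs searched. Beside the windows printed, another Bbc3 window, at chr7:16310181-16310480 (plus strand), held an E-box, and a Bmf window, at chr2:118544538-118544837 (minus strand), held a p53 decamer. The windows of Bid, Bad, Bak1 and Bok held none of these letters. The Bbc3 windows were 74.7% to 78% G and C, and those of Bcl2l11 71% and 74%, against 63.3% for Bid and 57.3% for Bax.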
